A study of Mus musculus with 46 samples.

Results

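The triglyceride synthesis enzymes described here are the products of 9 genes, namely Gpam, Agpat2, Agpat3, Lpin1, Lpin2, Dgat1, Dgat2, Mogat1 and Pnpla3. They were chosen by gene symbol from a list, and all 9 were found among the 25494 rows of the RNA-seq count table and passed its filter on low counts. Liver was taken from male C57BL/6 mice that arrived at 5 weeks of age, were acclimated on chow and were then fed for 20 weeks on a lipid-rich diet (LD, called a high fat diet in the sample labels) or a carbohydrate-rich diet (CD, called a low fat diet). LD supplied 60% of its energy as lipid and CD 10%. The labels give the same strain and sex for every group and no treatment other than diet. They do not say whether samples of different assays that share a number came from 1 mouse. RNA-seq covered 5 mice per diet, ChIP-seq of the active chromatin mark H3K27ac covered 3 samples per diet, ChIP-seq of the transcription factors Hnf4α and C/EBPα covered 2 samples per diet each, and promoter capture Hi-C (PCHi-C) gave 1 list of promoter contacts per diet, made by the authors from 2 pooled replicates.

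Liver makes triglyceride mainly by the glycerol 3-phosphate pathway, in which fatty acids are attached to a glycerol backbone step by step. Gpam, a mitochondrial glycerol-3-phosphate acyltransferase, adds the first acyl chain, the Agpat enzymes add the second to give phosphatidic acid, the lipins remove its phosphate to give diacylglycerol, and Dgat1 and Dgat2 add the last acyl chain. Mogat1 enters the pathway from monoacylglycerol, and Pnpla3 is a patatin-like protein of the lipid droplet surface. Hnf4α is a nuclear receptor and C/EBPα a basic leucine zipper factor, both abundant in hepatocytes.

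The sequences below carry the occupied loci on which the results turn. They are the central 200 bases of ChIP-seq loci near Agpat2, Dgat2 and Pnpla3, together with the 250 bases before the start site of Pnpla3, read from the plus strand of mm9 (NCBIM37, with gene models of GENCODE M1). The first is chr2:26466661-26466860, between genes 6.8 kb upstream of the Agpat2 transcription start site (TSS), where Hnf4α occupancy was called higher on LD. The next is chr2:26464678-26464877, also between genes, 4.8 kb upstream, with C/EBPα called higher on LD. The Agpat2 intron locus at chr2:26458794-26458993 and the Dgat2 intron loci at chr7:106316618-106316817 and chr7:106330401-106330600 had C/EBPα called lower on LD. The Dgat2 intron locus at chr7:106318609-106318808 held the tallest Hnf4α peaks near that gene, and the locus at chr15:83986734-83986933, between genes, held the tallest near Pnpla3. The Pnpla3 promoter is chr15:83997996-83998245. Capitals mark matches to the motif letters given after the sequences.
Agpat2 −6.8 kb, Hnf4α: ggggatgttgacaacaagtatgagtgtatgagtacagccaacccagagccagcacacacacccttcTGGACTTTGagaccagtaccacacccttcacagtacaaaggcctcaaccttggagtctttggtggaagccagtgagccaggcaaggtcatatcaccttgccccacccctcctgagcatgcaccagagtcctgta
Agpat2 −4.8 kb, C/EBPα: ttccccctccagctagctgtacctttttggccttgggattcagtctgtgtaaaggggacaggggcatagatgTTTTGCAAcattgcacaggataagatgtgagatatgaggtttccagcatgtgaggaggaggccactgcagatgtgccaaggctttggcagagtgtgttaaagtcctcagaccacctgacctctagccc
Agpat2 +1.0 kb, C/EBPα: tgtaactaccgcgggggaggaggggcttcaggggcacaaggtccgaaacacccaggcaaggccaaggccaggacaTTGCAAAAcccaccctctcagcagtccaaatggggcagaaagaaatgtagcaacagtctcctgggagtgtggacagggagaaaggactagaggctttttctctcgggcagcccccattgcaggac
Dgat2 +14.5 kb, C/EBPα: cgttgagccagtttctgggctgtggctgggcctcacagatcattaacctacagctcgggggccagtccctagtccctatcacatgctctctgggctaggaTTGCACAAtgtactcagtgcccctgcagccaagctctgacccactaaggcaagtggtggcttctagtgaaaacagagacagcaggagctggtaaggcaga
Dgat2 +0.7 kb, C/EBPα: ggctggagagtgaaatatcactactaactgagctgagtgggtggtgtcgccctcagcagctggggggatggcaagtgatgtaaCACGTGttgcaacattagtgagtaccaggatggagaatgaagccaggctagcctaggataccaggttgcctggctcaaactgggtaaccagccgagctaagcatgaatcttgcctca
Dgat2 +12.5 kb, Hnf4α: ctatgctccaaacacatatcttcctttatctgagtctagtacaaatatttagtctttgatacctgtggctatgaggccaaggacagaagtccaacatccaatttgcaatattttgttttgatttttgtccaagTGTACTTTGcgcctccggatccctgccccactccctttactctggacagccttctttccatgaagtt
Pnpla3 −11.4 kb, Hnf4α: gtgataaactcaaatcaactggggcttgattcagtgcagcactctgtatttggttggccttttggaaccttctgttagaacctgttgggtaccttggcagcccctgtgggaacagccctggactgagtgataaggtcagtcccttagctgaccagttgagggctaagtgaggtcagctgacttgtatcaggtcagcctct
Pnpla3 promoter: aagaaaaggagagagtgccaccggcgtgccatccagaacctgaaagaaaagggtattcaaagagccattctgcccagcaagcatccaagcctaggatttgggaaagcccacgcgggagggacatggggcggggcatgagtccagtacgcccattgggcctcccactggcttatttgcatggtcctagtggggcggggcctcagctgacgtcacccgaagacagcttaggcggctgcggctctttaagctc

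The motifs searched, on both strands, were HNF4 (CAAAGTNCA), C/EBP (TTGCNNAA), the sterol response element SRE (TCACCCCAC) and the E-box (CACGTG). The ends of the HNF4 and C/EBP letters can share bases, and the other motifs were searched independently. The capitals are an HNF4 match in the Agpat2 −6.8 kb and Dgat2 +12.5 kb loci, an E-box in the Dgat2 +0.7 kb locus and a C/EBP match in the Agpat2 −4.8 kb, Agpat2 +1.0 kb and Dgat2 +14.5 kb loci. An HNF4 match was held by 13.3% of all Hnf4α loci with a peak in every sample, and a C/EBP match by 46.7% of all such C/EBPα loci. Near the enzymes, 6 of 33 such Hnf4α loci (18.2%) held an HNF4 match and 10 of 22 such C/EBPα loci (45.5%) a C/EBP match. Of the loci called lower on LD, 0 of 3 for Hnf4α held an HNF4 match and 2 of 4 for C/EBPα a C/EBP match. Of the 9 promoters, searched over 250 bases before the TSS, that of Agpat3 held a C/EBP match, and the other 8 held none of these letters. Over all 24041 promoters of that length, 8.93% held a C/EBP match, 6.52% an E-box, 1.21% an HNF4 match and 0.441% an SRE. A match describes the letters in the window and no match says only that those letters are not in it.

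Counts on genes ran from 31707963 to 38250613 read pairs per mouse on LD and from 32450582 to 39012699 on CD. Peak lists held 53821 to 56987 H3K27ac intervals per LD sample and 48156 to 51608 per CD sample. The Hnf4α lists held 46363 and 44247 peaks on LD and 35143 and 47992 on CD, so that CD 1 had the fewest and CD 2 the most. The C/EBPα lists held 38281 and 39310 peaks on LD and 41713 and 46371 on CD. All 6 hepatocyte markers listed were abundant on both diets, with Alb at 67100 CPM (scaled counts per 1e6) on LD and 70300 on CD. Of the 6, Alb, Apoa1 and Ttr were not called, and Cps1, Serpina1c and Fgb were lower on LD, with CD levels 2.52, 1.81 and 1.7 times those on LD. In bulk tissue, fewer cells of a type and less RNA per cell cannot be told apart.

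RNA of 3 of the 9 enzymes differed between the diets by the test used here, which asked for an adjusted p-value under 0.05 over all 13494 rows tested and a fold change above 1.2. Mogat1 and Lpin2 rose on LD and Pnpla3 fell. The other 6, which include Gpam and both Dgat genes of the glycerol 3-phosphate pathway, were not called. Of all rows tested, 13.8% were called higher and 11.1% lower on LD. The median log2 fold change was 0.12 over the 9 enzymes and -0.002 over all rows tested. All 5 LD mice lay above all 5 CD mice for Lpin2 and Mogat1, a pattern found for 10.2% of all rows, and below them for Pnpla3, a pattern found for 8.35%.

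**Figure D1:**
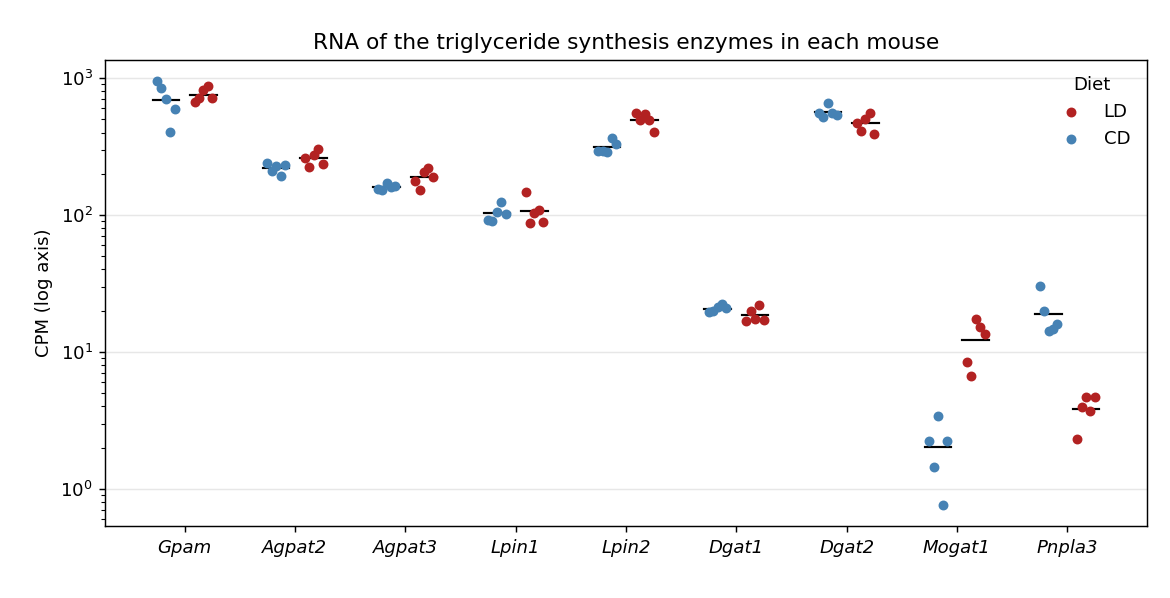
RNA of each enzyme in each mouse in CPM on a log axis, with LD in red, CD in blue, 1 point per mouse and a line at the mean of each diet. The LD mice stand apart from the CD mice for Lpin2, Mogat1 and Pnpla3, and overlap them for the other 6 genes.

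Levels can be compared between genes on the TPM scale, which divides by gene length. On CD, Dgat2 had the highest level, at 452 ± 46.8 TPM (SD, n = 5), followed by Gpam at 325 ± 93.9, Agpat2 at 250 ± 17.5 and Lpin2 at 95.8 ± 11.1. The order went on with Agpat3 at 83.9 ± 5.43, Lpin1 at 32.4 ± 4.76, Dgat1 at 21.2 ± 1.57, Pnpla3 at 7.29 ± 2.29 and Mogat1 at 2.98 ± 1.46 TPM. In that order the mice of Dgat2 and Gpam overlapped, as did those of Gpam and Agpat2 and of Lpin2 and Agpat3, and the other neighbours were separate. On LD the first 7 places were held by the same genes, from Dgat2 at 391 ± 43.2 TPM to Dgat1 at 20.1 ± 1.86, but Mogat1, at 19.2 ± 7.16 TPM, overlapped Dgat1 and Pnpla3 was last at 1.58 ± 0.436. On LD the mice of Dgat2 and Gpam again overlapped, as did those of Gpam and Agpat2, and Lpin2 and Agpat3 were separate.

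Mogat1, the monoacylglycerol acyltransferase, was measured at 8.42, 6.62, 17.3, 15.1 and 13.6 CPM in LD 1 to LD 5. In CD 1 to CD 5 it was at 2.23, 1.44, 3.38, 0.762 and 2.24 CPM. The lowest LD mouse, LD 2, lay above the highest CD mouse, CD 3. The difference was 2.59 on the log2 scale (SE 0.378), or 6.03-fold, with an adjusted p of 0.000849 by edgeR's quasi-likelihood test. Both diets varied widely around their means, and the level rested on 347 counts in all on CD.

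Lpin2, which converts phosphatidic acid to diacylglycerol, was at 553, 490, 549, 491 and 404 CPM in LD 1 to LD 5. The 5 CD mice held 295, 291, 287, 362 and 328 CPM. No LD mouse reached down to the highest CD mouse, CD 4. The difference was 0.67 (SE 0.0971, log2), or 1.59-fold, with an adjusted p of 0.000319. Lpin1, its paralog and a known coactivator of fatty acid oxidation genes, was at 146, 87.7, 104, 109 and 89.4 CPM on LD and at 92.6, 90.1, 106, 124 and 102 CPM on CD. The diets overlapped, LD 1 was the highest mouse, and the difference of 0.06 (95% interval -0.23 to 0.35) was not called, with an adjusted p of 0.782.

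Pnpla3 was at 2.3, 3.93, 4.66, 3.7 and 4.67 CPM in LD 1 to LD 5. In CD 1 to CD 5 it was at 30.2, 20, 14.1, 14.6 and 16.0 CPM. The highest LD mouse lay below the lowest CD mouse, and CD 1 was the highest of all. The difference was -2.3 (SE 0.248, log2), so that the level on CD was 4.94 times that on LD, with an adjusted p of 0.000107.

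Dgat2, one of the enzymes of the last step, was at 470, 413, 504, 554 and 392 CPM on LD. On CD it was at 557, 522, 660, 558 and 537 CPM. LD 4 lay within the CD range, and the difference of -0.28 (95% interval -0.5 to -0.06) had an adjusted p of 0.0515, which did not pass the threshold. Dgat2 was called lower by DESeq2 (adjusted p 0.0334), by edgeR with a replicate block (0.0326) and by edgeR without LD 4 (0.019). Dgat1, the other enzyme of that step, was at 16.9, 19.9, 17.3, 22.1 and 17.1 CPM on LD. On CD it was at 19.5, 19.9, 21.2, 22.2 and 20.8 CPM. The diets overlapped, with a difference of -0.15 (interval -0.34 to 0.03) and an adjusted p of 0.202.

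Gpam was at 664, 714, 813, 874 and 718 CPM on LD and at 951, 839, 700, 402 and 592 CPM on CD. The CD mice spread across the whole LD range, and the difference of 0.12 (interval -0.3 to 0.54) had an adjusted p of 0.685. The acyltransferases of the second step were close together. Agpat2 was at 262, 225, 272, 302 and 237 CPM on LD and at 240, 208, 229, 192 and 231 CPM on CD, a difference of 0.24 (interval 0.05 to 0.43) with an adjusted p of 0.0623. Agpat3 was at 177, 153, 205, 220 and 190 CPM on LD and at 155, 152, 171, 161 and 164 CPM on CD, again a difference of 0.24 (interval 0.04 to 0.43), with an adjusted p of 0.0653. For both, LD 2 was the lowest LD mouse and lay within the CD range. For Agpat2, LD 5 lay within that range too. Without LD 2 both were called, at adjusted p-values of 0.03 for Agpat2 and 0.0109 for Agpat3, and limma on log2(TPM + 1) also called both, at 0.00926 and 0.0301. On that TPM scale the median log2 fold change over all rows was 0.058, and 2097 rows were called higher and 711 lower.

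Beyond the 9 enzymes, 37 genes of triglyceride metabolism were listed, of which 36 were tested, 10 were called higher, 2 lower and 24 not called, beside 13.8% and 11.1% of all rows. Against a fold of 1.2 as the tested value 3 were called higher and 1 lower, limma on either TPM scale called 15 and 1, and without CD 1 or CD 2 edgeR called 8 and 1. Their median log2 fold change was 0.24. Among the other acyltransferases, Gpat3, a glycerol-3-phosphate acyltransferase of the endoplasmic reticulum, rose from 2.95 ± 0.954 CPM on CD to 20.6 ± 4.75 CPM on LD (SD, n = 5). That difference of 2.79 (SE 0.221, log2) or 6.94-fold had an adjusted p of 1.43e-05, and the LD mice all lay above the CD mice. Gpat4, its paralog, was at 173 ± 20.9 CPM on LD and 177 ± 24.2 on CD, and was not called at an adjusted p of 0.86. Gpat2 was not called either, at a log2 difference of 0.31 and an adjusted p of 0.0644.

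Of the remaining paralogs, Agpat4 was called higher (0.65, adjusted p 0.0351), while Agpat1 (0.25, 0.214) and Agpat5 (0.18, 0.17) were not. Lpin3 (0.23, adjusted p 0.115) and Mogat2 (0.9, 0.0723) were not called, and Mogat2 was low, at 0.652 ± 0.222 CPM on LD and 0.348 ± 0.149 on CD. The triglyceride lipases held 3 genes called higher and 2 called lower of 9. Pnpla5, a patatin-like paralog of Pnpla3 on the same chromosome, fell from 6.0 ± 3.77 CPM on CD to 0.769 ± 0.263 on LD, so that the CD level was 7.82 times that on LD (adjusted p 0.000773). Pnpla2, the adipose triglyceride lipase, did not pass the test (0.03, adjusted p 0.893), and neither did its inhibitor G0s2 (0.64, adjusted p 0.22).

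The supply of glycerol 3-phosphate held 2 genes called higher of 4, the acyl-CoA synthetases 1 of 4 tested, the other phosphatases 1 of 4 and the phospholipid branch 1 of 7, and none of these lists held a gene called lower. Among 8 transcriptional regulators of the pathway, 2 were called higher and 2 lower. Pparg, a nuclear receptor of lipid storage, rose from 16.2 ± 0.899 to 43.2 ± 8.64 CPM on LD (log2 difference 1.41, adjusted p 1.25e-05). Mlxipl, which encodes the carbohydrate response factor ChREBP, fell from 83.4 ± 7.79 on CD to 40.0 ± 4.56 CPM on LD (-1.06, adjusted p 8.57e-06). Srebf1, the sterol response factor, was at 355 ± 50.6 CPM on LD and 485 ± 255 on CD, and was not called at an adjusted p of 0.292. Hnf4a (-0.26, adjusted p 0.0176) and Cebpa (-0.26, adjusted p 0.0202), which encode Hnf4α and C/EBPα, were lower on LD but stayed under the fold threshold.

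Most markers of other cell types were not called, and their counts can be read against the 13.8% of all rows called higher and the 11.1% called lower. Of 6 macrophage markers, Cd68 and Itgax were called higher on LD, and the summed level of the list was 245 to 628 CPM on LD and 243 to 442 on CD. One marker each was called higher of 6 lymphocyte markers (Cd8a, list sum 3.41 to 7.6 CPM on LD and 3.3 to 4.26 on CD), of 5 stellate cell markers (Col1a1, 265 to 456 and 321 to 417) and of 4 cholangiocyte markers (Spp1, 44.9 to 120 and 17.3 to 29.9). None of 5 endothelial markers was called (374 to 535 and 431 to 534). Of the 6 adipocyte markers Plin1 and Lep were at 0 counts in every mouse, Adipoq and Retn were too low to test, and Cfd and Lipe were called higher (list sum 19.1 to 62.8 and 13.3 to 19.1). Of 6 hepatocyte markers Cps1, Fgb and Serpina1c were called lower (80600 to 98400 and 88800 to 105000), and of 4 pancreas markers Cela1 was called lower with the others near or at 0 (13.5 to 25.5 and 21.5 to 34.2). Their part in the differences of Mogat1, Lpin2 and Pnpla3 was not tested.

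The genes whose levels followed those of the 3 called enzymes most closely were ranked by Pearson's r of log2 CPM over the 10 mice, which share the split by diet. For Mogat1 they were Acnat2 (r = 0.989), Gm19619 (0.985) and Gnl3l (0.983). Within the diets, r with Mogat1 was 0.966 over the 5 LD mice and 0.98 over the 5 CD mice for Acnat2, 0.918 and 0.966 for Gm19619, and 0.943 and 0.931 for Gnl3l. For Lpin2 they were Ccdc85b (0.974), Sec23a (0.954) and Tmem120a (0.944). Within LD and CD these had r = 0.898 and 0.856 for Ccdc85b, and lower values of 0.657 and 0.761 for Sec23a and 0.566 and 0.65 for Tmem120a. For Pnpla3 they were Atf4, Fabp5 and Acaca, each at 0.962. Within LD and CD, r with Pnpla3 was 0.59 and 0.944 for Atf4, 0.724 and 0.677 for Fabp5, and 0.297 and 0.94 for Acaca, the acetyl-CoA carboxylase of fatty acid synthesis. These values are descriptions over few mice.

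H3K27ac marks active promoters and enhancers. Its extent around each enzyme was measured as the share of the gene body plus 20 kb on either side that the peaks of a sample covered. Around Pnpla3 (chr15:83998246-84019951, plus strand) the 3 LD samples had 25.9%, 24.2% and 27.5% of the window covered, and the 3 CD samples 56.3%, 49.5% and 50.5%. The LD samples all lay below the CD samples, with a difference of means of -26.3 percentage points. By an exact permutation test (two-sided, 3 against 3) p was 0.1, the smallest p this design allows. A window with all LD samples below all CD samples was found for Pnpla3 alone of the 9 enzymes and for 5.3% of the 19138 windows of genes with any coverage.

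**Figure D2:**
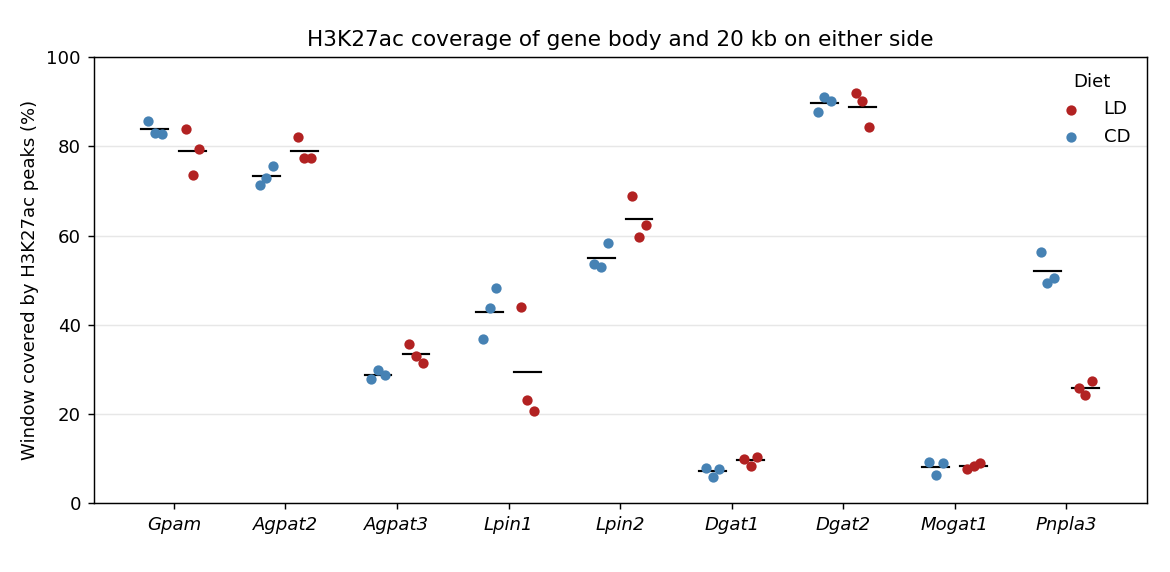
Share of the window of each enzyme (gene body and 20 kb on either side) covered by H3K27ac peaks, in percent, with 1 point per sample (LD red, CD blue, 3 each) and a line at the mean. Pnpla3 has 24.2% to 27.5% covered on LD and 49.5% to 56.3% on CD, and Dgat1 and Mogat1 have under 11% in every sample.

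Of the H3K27ac loci near Pnpla3, 2 had a peak in every CD sample and in no LD sample. One lay 5.4 kb upstream of the TSS (chr15:83991800-83993799) and one 12.5 kb downstream of it (chr15:84008200-84013199), over the gene body. The 4 other H3K27ac loci in the window, among them the one over the TSS, had peaks in all 6 samples. Among the 54 H3K27ac loci in the windows of the 9 enzymes, these 2 were the CD-only loci and there was no LD-only locus. Within the genome, 380 loci were CD-only and 1571 LD-only of 62774.

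**Figure D3:**
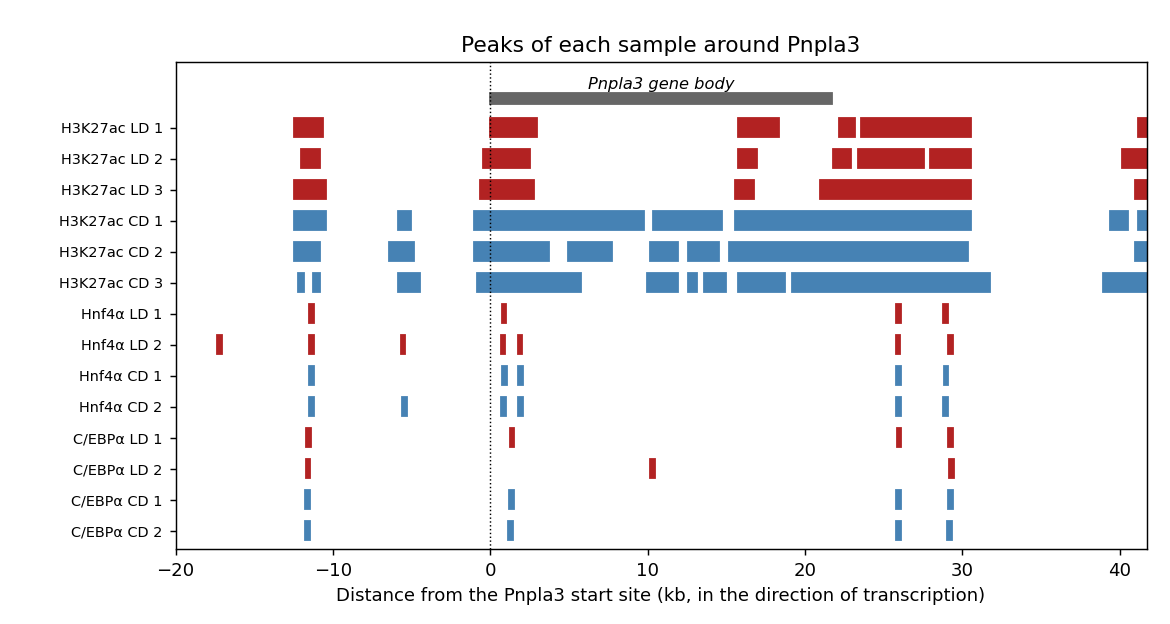
Peaks of each sample around Pnpla3, plotted by their distance from the TSS in kb, with 1 row per sample, LD in red and CD in blue. H3K27ac intervals fill most of the gene body in the CD samples and leave gaps in the LD samples, and the Hnf4α and C/EBPα peaks about 11 kb upstream are present in all samples.

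Around Lpin2 (chr17:71533318-71599158, plus strand) the covered share was 69.0%, 59.7% and 62.4% for LD samples against 53.7%, 52.9% and 58.4% for CD samples. All LD samples lay above all CD samples here, and likewise for Agpat2 (82.2%, 77.5% and 77.5% against 71.3%, 72.9% and 75.6%). Agpat3 had 35.8%, 33.0% and 31.5% on LD and 27.8%, 30.0% and 28.8% on CD, again without overlap, and Dgat1 had 10%, 8.43% and 10.4% on LD and 8.03%, 6.02% and 7.63% on CD. Those 4 of 9 windows compare with 20.9% of all windows, and each had p = 0.1 by the exact permutation test. The peaks of LD samples covered more of the genome in all, at 5.64% to 6.04% against 5.26% to 5.48%. With each coverage divided by the share of the genome that its sample covered, none of the 4 stood apart and Gpam, Dgat2 and Pnpla3 lay below on LD, where 14.8% of all windows did.

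Coverage overlapped between the diets for the other 4 enzymes. Mogat1 (chr1:78507635-78534748, plus strand) had 7.75%, 8.34% and 8.94% on LD and 9.24%, 6.26% and 8.94% on CD, while its RNA differed 6.03-fold. In a window of 20 kb on either side of its TSS, however, peaks covered 4.5%, 4.5% and 6.5% for the LD samples of Mogat1 against 4%, 3.5% and 4% for the CD samples, so that all LD samples lay above all CD samples (exact permutation p = 0.1). This was found for 17.8% of all such windows. Dgat2 was almost fully covered, at 91.9%, 90.2% and 84.4% on LD and 87.8%, 91.0% and 90.2% on CD, and Gpam had 84.0%, 73.6% and 79.4% against 85.7%, 83.1% and 82.8%. Lpin1 had 44.0%, 23.2% and 20.8% on LD and 36.8%, 43.8% and 48.2% on CD. LD 1 alone lay inside the CD range of Lpin1, and without it the LD samples of Lpin1 and Gpam lay below all CD samples. Without LD 1 this pattern was found for 9.95% of all windows.

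Hnf4α had 79 loci within the windows of the 9 enzymes, of which 57 had a peak in at least 2 samples and 33 in all 4. Agpat3 had the most, 15, in the longest window (120 kb), and Dgat1 the fewest, 2, in the shortest (49.8 kb). The height of a peak, its tag count scaled by HOMER to a common library size, was compared between the diets where all 4 samples had a peak, after centring each sample on its median. Centring removes any shift shared by all loci of a sample. A locus was called at an adjusted p under 0.05 and a fold above 1.5. Of the 33 loci, 1 was called higher on LD and 3 lower, against 3.27% and 2.78% of the 23331 such loci of the genome.

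All 4 called Hnf4α loci lay near Agpat2 and Dgat2, which held 5 each of the 33 loci tested. At the Agpat2 −6.8 kb locus, heights were 138.5 and 102.0 in LD 1 and LD 2 and 44.8 and 90 in CD 1 and CD 2, a centred difference of 0.71 on the log2 scale (SE 0.167, limma adjusted p 0.0159). There the LD heights lay above the CD heights before centring too. Inside the gene, the locus at +4.2 kb had heights of 103.5 and 91.8 on LD and 89.5 and 228.2 on CD (-0.74, adjusted p 0.00865). The locus at +8.7 kb had 61.2 and 38.0 on LD and 65.0 and 101.5 on CD (-0.94, adjusted p 0.0119). At the Dgat2 +14.5 kb locus, heights were 57.2 and 58.5 on LD and 53.2 and 127.5 on CD (-0.7, adjusted p 0.0223). At +8.7 kb the LD heights lay below the CD heights before centring. At the loci of Agpat2 +4.2 kb and Dgat2 +14.5 kb CD 1 lay below both LD samples before centring, and CD 2 above them. Without centring limma called 0 Hnf4α loci in the genome, with 541 at an unadjusted p under 0.05 and 0 of them near the enzymes. Calls near the enzymes were lost without LD 2, without CD 1 and without CD 2, and fewer loci were called over the genome in each of these fits. Each leaves a diet with 1 sample. No locus near the enzymes was called higher without centring, without LD 1, without CD 1 or without CD 2, so that the call at Agpat2 −6.8 kb was lost in each.

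The tallest Hnf4α locus near Agpat2, at +3.5 kb, had heights of 221.2 and 167.5 on LD and 173.0 and 365.0 on CD, and its difference of -0.58 had an adjusted p of 0.0139 but stayed under the fold threshold. Near Dgat2 the tallest, at +12.5 kb, had 237.8 and 185.5 on LD and 152.0 and 296.5 on CD and was not called (-0.21, adjusted p 0.357). The tallest near Pnpla3, at −11.4 kb, had 94.5 and 84.2 on LD and 70.5 and 167.2 on CD (-0.47, adjusted p 0.0742). Near Lpin2 the tallest, at +18.3 kb, had 92.5 and 100 on LD and 47.8 and 124.2 on CD (0.13, adjusted p 0.702). Near Mogat1 the tallest, at +26.9 kb over an exon, had 66.2 and 56.0 on LD and 26.2 and 58.0 on CD (0.45, adjusted p 0.168). The loci tested near these 3 enzymes numbered 3 for Pnpla3, 7 for Lpin2 and 2 for Mogat1, and none was called, a number too small to be read against the 3.27% and 2.78% of the genome. The tallest loci near the remaining genes were not called, with log2 differences of 0.42 at Gpam −1.5 kb, 0.15 at Agpat3 +58.0 kb, -0.24 at Lpin1 +2.3 kb and 0.04 at Dgat1 −0.1 kb.

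Another 4 Hnf4α loci had a peak in both samples of 1 diet and in neither of the other. The 3 LD-only and 1 CD-only were 3.8% and 1.27% of the 79 loci, near the 4.85% and 2.57% of all 70704 Hnf4α loci. The LD-only loci were at Agpat2 −13.1 kb (heights 18.2 and 26), Dgat2 +6.8 kb (22.5 and 20.8) and Dgat2 −19.6 kb (15.2 and 26.8), and the CD-only locus was at Agpat3 +23.3 kb (8.5 and 12.5). Over all Hnf4α peaks the median height was 19.2 in LD 1, 19.5 in LD 2, 15.2 in CD 1 and 21.5 in CD 2, so that the CD-only locus was low on that scale. A missing peak does not show that no tags were there, and these loci were not tested.

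**Figure D4:**
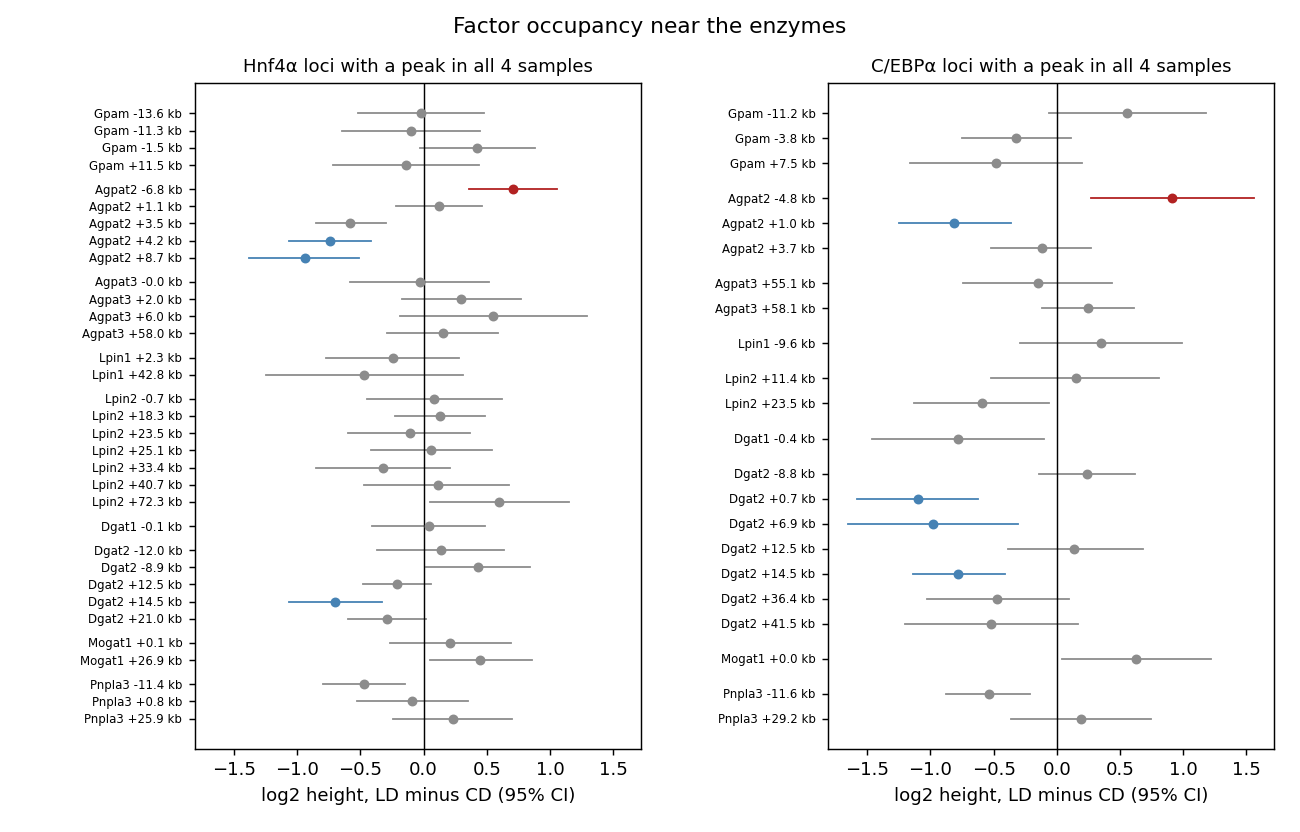
Difference in centred log2 peak height, LD minus CD, at each Hnf4α locus (left) and C/EBPα locus (right) with a peak in all 4 samples, with 95% intervals from limma and the distance of the locus from the TSS. Red marks loci called higher and blue loci called lower on LD, and the called loci of both factors lie near Agpat2 and Dgat2.

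C/EBPα had 89 loci within the same windows, 52 with a peak in at least 2 samples and 22 in all 4. Of these 22, 1 was called higher and 4 lower on LD, against 8.9% and 8.92% of the 13805 such loci of the genome. As for Hnf4α, the called loci were near Agpat2 and Dgat2, which held 3 and 7 of the 22 loci tested. At the Dgat2 +0.7 kb locus, in the first part of the gene, heights were 30.5 and 23.0 on LD and 85.0 and 58.0 on CD, a centred difference of -1.1 (SE 0.242, adjusted p 0.000328). At Dgat2 +14.5 kb they were 58.0 and 51.5 on LD and 127.0 and 105.5 on CD (-0.78, adjusted p 0.000869). At Dgat2 +6.9 kb they were 8.5 and 15.5 on LD and 28.5 and 27.5 on CD (-0.98, adjusted p 0.0296). Near the 9 enzymes 1 C/EBPα locus was called without centring, where 462 of 13805 were called over the genome, against 2460 after centring. Calls near the enzymes were also lost without CD 1. For the 3 Dgat2 loci the LD heights lay below the CD heights before centring as well. The Dgat2 +14.5 kb position was called lower for both factors after centring, but the Hnf4α call there was lost without centring, without LD 2 and without CD 2. Dgat2 RNA had a difference of -0.28, not called by edgeR (adjusted p 0.0515) and called by DESeq2 (0.0334). The printed C/EBP match lies in the central 200 bases of both loci.

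Near Agpat2 C/EBPα was called in both directions. Inside the gene, at +1.0 kb, heights were 31.0 and 38.5 on LD and 101.5 and 55.0 on CD (-0.81, adjusted p 0.00574). Upstream, at −4.8 kb, they were 26.5 and 23.0 on LD and 15.5 and 17 on CD (0.91, adjusted p 0.0354). The upstream call was lost without centring, without LD 1, without CD 1 and without CD 2, under each of which 0 C/EBPα loci near the enzymes were called higher. Near Pnpla3 the tallest C/EBPα locus, at −11.6 kb, had heights of 61.0 and 78.0 on LD and 157.5 and 98.5 on CD, and its difference of -0.54 had an adjusted p of 0.0136 but stayed under the fold threshold. The locus at the Mogat1 TSS had 23.0 and 35.5 on LD and 30.0 and 17.5 on CD (0.63, adjusted p 0.126), and the tallest near Lpin2, at +23.5 kb, had 19.5 and 30.0 against 57.5 and 35.5 (-0.59, adjusted p 0.105). Neither passed the test.

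For the remaining enzymes the tallest C/EBPα loci, by mean height with a missing peak counted as 0, were not called. They were at Gpam −3.8 kb (-0.32), Agpat3 +58.1 kb (0.25), Lpin1 −9.6 kb (0.35) and Dgat1 −0.4 kb (-0.78, adjusted p 0.0964), and at Agpat2 +3.7 kb the tallest locus of that gene had a difference of -0.12. Peaks in both samples of 1 diet and neither of the other were found at 9 loci. The 7 LD-only and 2 CD-only loci were 7.87% and 2.25% of the 89, against 5.18% and 1.77% of all 97370 C/EBPα loci, which also had more LD-only than CD-only loci. The 7 LD-only loci were Gpam −1.3 kb (22 and 41.0), Agpat3 +48.4 kb (15.5 and 16.0) and +19.9 kb (6.5 and 7.0), Lpin1 +7.1 kb (11.5 and 16.0) and +2.3 kb (16.5 and 12), and Lpin2 −1.1 kb (7.5 and 7.0) and +33.3 kb (17.5 and 18). The 2 CD-only loci were Lpin1 +19.2 kb (14.0 and 7.5) and +12.2 kb (21.0 and 13). Gpam −1.3 kb was the tallest of these and lay beside the tallest Hnf4α locus of Gpam, at −1.5 kb.

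PCHi-C lists the DNA fragments that contact a captured promoter fragment (the bait) more often than a background model gives, as a CHiCAGO score of at least 5. Baits named for the 9 enzymes had 58 interactions on LD and 71 on CD, of which 48 were found on both. At a score of at least 7 the order turned, with 32 on LD and 29 on CD. The whole lists held 151139 interactions on LD and 149716 on CD, and 70204 and 71620 at a score of at least 7, so that in both settings they differed in the other direction from the enzymes. Each diet had 1 pooled list, so that no test between the diets was possible. Over all baits with an interaction the median was 5 per bait on each diet, with quartiles of 2 and 13. Lpin2 stood above the quartiles with 33 on LD and 30 on CD, 28 of them shared. Agpat3 with 8 and 13 and Dgat1 with 8 and 6 lay above the median but not beyond the quartiles. Lpin1 had 1 and 8, Gpam 3 and 5, Mogat1 3 and 6, Pnpla3 2 and 2 and Dgat2 0 and 1, and Agpat2 had none in the lists. Neighbouring fragments share signal, so that interactions of 1 bait are not independent.

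The other end overlapped an H3K27ac locus in 39 of the 58 interactions on LD and in 48 of 71 on CD. It overlapped an Hnf4α locus in 17 and 19 and a C/EBPα locus in 14 and 16. As shares these were 67.2% and 67.6% for H3K27ac, 29.3% and 26.8% for Hnf4α and 24.1% and 22.5% for C/EBPα. Over the interactions of all baits the shares were 39% and 40% for H3K27ac, 17.2% and 17.9% for Hnf4α and 14% and 14.6% for C/EBPα. Of the 58 on LD, 33 belonged to Lpin2, whose fragments lie side by side, and the difference from all baits was not tested. The highest score belonged to Mogat1, whose bait contacted that of Farsb, 20.8 kb away, at 25.55 on LD and 20.08 on CD. Farsb, a subunit of the phenylalanyl-tRNA synthetase, was at 47.6 CPM on LD and 47.2 on CD. The score for Mogat1 was thus high on both diets, while its RNA differed between them and that of its partner did not pass the test (0.01, adjusted p 0.901).

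**Figure D5:**
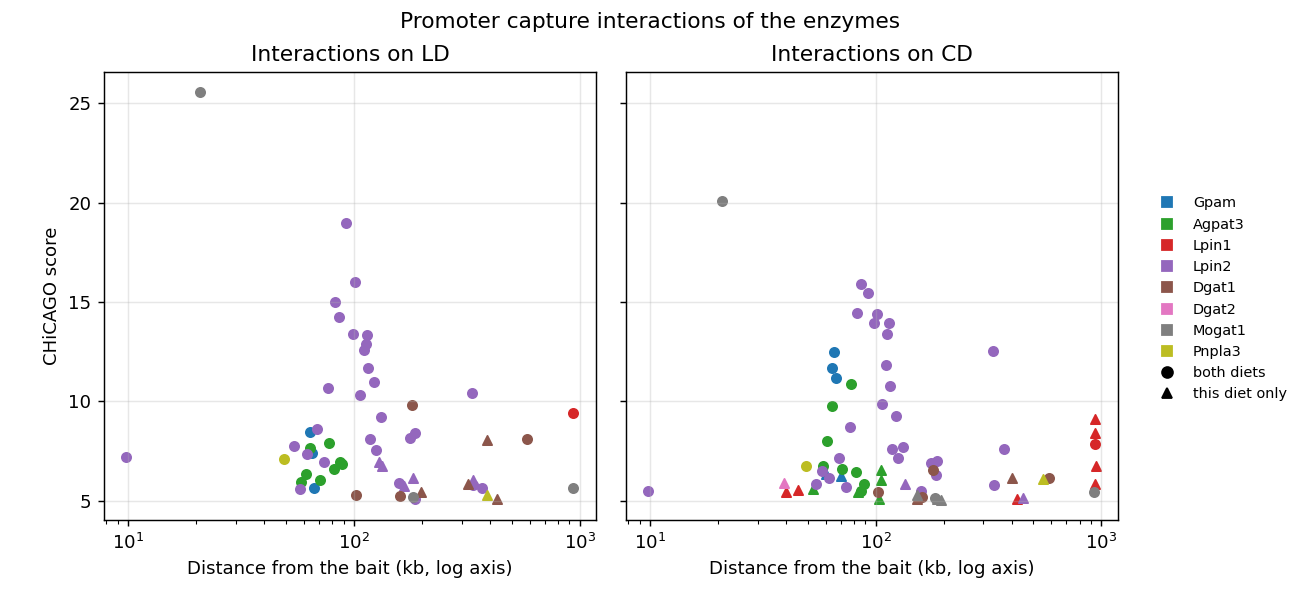
CHiCAGO score of each interaction of the enzymes' baits against its distance in kb on a log axis, for LD (left) and CD (right), coloured by gene, with circles for interactions found on both diets and triangles for those of 1 diet. Mogat1 has the highest score on each diet, and the interactions of Lpin2 gather about 100 kb from the bait.

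Lpin2 contacted fragments with a median distance of 115.3 kb on LD and 113.35 kb on CD. Its highest score on LD, 18.98, was for a fragment 92.2 kb away that held 3 Hnf4α and 2 C/EBPα loci and scored 15.43 on CD. The highest on CD, 15.89, was for the neighbouring fragment, 86 kb away, which scored 14.23 on LD. Pnpla3 contacted the bait of Pnpla5, 49.0 kb away, at 7.08 on LD and 6.73 on CD. The RNA of both genes was lower on LD, and the interaction was listed on both diets.

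Gpam had its highest scores at 8.48 on LD and 12.49 on CD, on neighbouring fragments 64.1 and 65.2 kb away, from a bait placed at -29.1 kb from the TSS used here. Agpat3 had 7.92 on LD and 10.87 on CD with a fragment 77.4 kb away. Lpin1 had 9.4 on LD at 939.0 kb and 9.14 on CD at 935.8 kb, on fragments close to each other. Most of the CD interactions of Lpin1 lay in this distant cluster. Dgat2 had 1 interaction, on CD, at 5.92 and 39.4 kb.

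Dgat1 contacted the bait of Gpaa1, 179.9 kb away, at 9.84 on LD and 6.55 on CD. Its contact with the bait of Commd5, 389.4 kb away, was listed on LD alone, at 8.07, and the other end held a C/EBPα locus with peaks in both LD samples and no CD sample. Commd5 RNA was at 15.5 CPM on LD and 16.2 on CD and was not called (-0.07, adjusted p 0.531). Slc39a4, a zinc transporter whose bait Dgat1 contacted on both diets at 5.32 and 5.43, was called higher on LD, from 11 to 33.6 CPM (1.6, adjusted p 0.00415), while Dgat1 itself was not called.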

How the data were processed

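The RNA-seq reads were mapped by the authors to mm9 with STAR 2.5 and counted by strand on RefSeq genes with featureCounts 1.5.0-p1. The deposited tables hold raw counts, TPM values and columns of the authors' own DESeq2 comparison, the last of which were not used. One TPM column carries a replicate number that the labels do not, and was used as a CD mouse without a number. For ChIP-seq, the authors aligned reads with Bowtie 0.12.8, removed duplicates with Picard 1.110 and called peaks per sample, and deposited SICER intervals for H3K27ac and, for Hnf4α and C/EBPα, HOMER peaks with a height (a signal scaled to a common library size). For PCHi-C, the authors deposited the CHiCAGO score of each interaction, computed on pooled replicates. TAD lists were not used.

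The counts were scaled by TMM, filtered with filterByExpr and tested by a robust quasi-likelihood fit in edgeR 4.0.16 under R 4.3.3, with Benjamini-Hochberg adjustment over 13494 rows. CPM were computed from the TMM-scaled library sizes. Overlapping peaks were merged into loci in Python 3.11.15 with pandas 2.3.3, peak heights were tested with limma 3.58.1 (trend and robust), and sequences were read with pysam 0.24.0. Alternatives included DESeq2 1.42.0, limma on log2 TPM with 1 or 0.1 added, other filters, windows of 10 and 50 kb, a block for the replicate number and the omission of each sample. Scripts were tested on simulated data. Replicates of 1 diet differed by more than counting noise (lowest chi-square per degree of freedom 20.3 among RNA pairs). The RNA p-values measure the spread between these mice. Those of peak heights rest largely on a spread shared by loci of like height, since each diet had 2 samples. C/EBPα at Lpin2 +11.4 kb (33.5 and 11.5 on CD) and at Dgat2 +6.9 kb (28.5 and 27.5) had an SE of 0.337 and 0.34.

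The members and gene lists were chosen with earlier results of these data known. Named are all 9 enzymes, the paralogs and lipid droplet partners of a member, every listed pathway gene or regulator called with a fold above 2, the 3 genes most like each called enzyme, the tallest, called and 1-diet loci, and the highest interaction of each enzyme and diet, with those of 1 diet scoring at least 7 whose other end held a 1-diet locus. Srebf1, Hnf4a, Cebpa, the interaction partners, the transporter gene and the markers called were named outside this rule. Samples that share a number were not treated as pairs, since the correlations of their deviations were not all above 0.1 (-0.0838 to 0.196 for RNA, -0.177 to 0.149 for H3K27ac, 0.0154 for Hnf4α and -0.0472 for C/EBPα).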

Additional observations from a re-analysis of the deposited data

Results flagged for a closer look

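Dgat2 RNA stood at 660 CPM in CD 3, while the nearest of the other CD mice was at 558 CPM, a gap of 0.739 of the whole range of the CD mice. It was the 1 extreme value found among 18 groups of 5 mice (9 enzymes on 2 diets), and chance gives about 1 in 20 groups.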

How the results depend on the processing

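Of 317 values under alternatives, 280 kept their direction and their side of the threshold or stayed within 1.5 times the count. Lpin2, Mogat1 and Pnpla3 were called under all 21 RNA alternatives, with log2 fold changes of 0.63 to 0.74, 2.34 to 2.87 and -2.39 to -1.66. The count of enzymes called higher was 4 by limma on either TPM scale, with Agpat2 and Agpat3 added, and 2 to 4 when 1 mouse was left out. The count called lower was 2 by DESeq2 and with a replicate block, with Dgat2 added, and 1 to 2 when 1 mouse was left out. Replicate numbers were not taken to pair the mice (1 of 5 LD mice matched best with its own number). The block left the Hnf4α count at 4 and the C/EBPα count at 5, and the H3K27ac coverage was not fitted with a block. With 1 mouse left out, Lpin1 ranged from -0.08 (without LD 1) to 0.13 and Gpam from -0.02 (without CD 4) to 0.25, neither called.

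Other pathway genes called higher numbered 3 against a fold of 1.2 as the tested value and 15 by limma on TPM, and those called lower 1 under both, and 1 to 2 when 1 mouse was left out (without CD 1 or CD 2). Over all rows edgeR called 1859 higher and 1498 lower, and limma on log2(TPM + 1) called 2097 and 711. Library totals over all rows, a robust dispersion estimate and the newer quasi-likelihood fit of edgeR were tried after the first fit was seen. The first and second left those counts as they were, the newer fit gave 1871 and 1515, and the enzymes called stayed the same in number.

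Enzymes whose H3K27ac coverage was lower in every LD sample numbered 2 with windows of 10 kb (5.14% of all windows) or around the TSS (4.84%), with Gpam added in both. They numbered 3 with coverage divided by the share of the genome covered (14.8%). When 1 sample was left out they numbered 1 to 3 (3 without LD 1, where 9.95% of windows had the pattern). Those higher numbered 0 with the divided coverage (13.2% of all windows), and 4 around the TSS (17.8%), where Mogat1 was added and Agpat3 lost. Called Hnf4α loci numbered 0 without centring, near the enzymes and over the genome. Calls near the enzymes were lost when any 1 sample was left out. Without LD 2, CD 1 or CD 2 fewer loci were called over the genome too. Called C/EBPα loci numbered 10 within 50 kb, 1 without centring, and 3 to 6 when 1 sample was left out (3 without CD 1). Leaving out a sample leaves a diet with 1, which is assumed to vary like the other diet. At a CHiCAGO score of at least 7 the interactions numbered 32 on LD and 29 on CD. The cause of these moves was not tested. Peak lists give no reads outside peaks, so that a missing peak sets no limit on the signal there, and with 2 or 3 samples per diet ChIP-seq differences rest on few animals.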
